A study of Mus musculus with 4 samples.

Results

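Epithelial identity genes build and specify sheets of joined cells. The 9 genes described here are Epcam, Perp, Trp63, Dsp, Dsg2, Grhl2, Grhl3, Esrp1 and Cgn, found by symbol (EPCAM, PERP, TRP63 and the others, without regard to case) among the 20800 to 21639 genes listed per section, of which 19783 were listed in all 4 sections. All 9 were listed in each of the 4 sections, and none was dropped by a filter. They were chosen for their function and, in part, selected on measured levels: Epcam and Perp were known to be high in the BMS961+BMS641 section. Their levels in that section, and the comparisons that use it, are therefore given as a description.

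Epithelial cells are held together by adherens junctions, tight junctions and desmosomes, and grainyhead-like factors switch on many of the genes for these structures. The neural plate starts as an epithelium, and neural tissue exchanges E-cadherin for N-cadherin as it forms. In the brain, ependyma and choroid plexus keep an epithelial form, while neurons and astrocytes do not.

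The data are spatial transcriptomes of cryosections of mouse brain organoids, grown from embryoid bodies of mouse embryonic stem cells with the CARLIN/Cas9 genotype, which all groups share. The organoids were kept for 3 months. From day 9 the medium held BMS961 with BMS641, agonists of retinoic acid receptors gamma and beta, at 0.1 µM, or BMS753, an agonist of receptor alpha, at 1 µM. The other groups received ATRA, all-trans retinoic acid, which activates all these receptors, at 1 µM, or 2% B27 supplement with vitamin A. The dose of the BMS961+BMS641 pair differed from that of the other ligands. Molds held several organoids, so the spots of 1 section can come from different organoids, and each group has 1 section. No difference between groups could be tested, and the spread within a section, given over its 4 quadrants, is not a replicate error.

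The sections held 365 spots for BMS961+BMS641, 469 for BMS753, 593 for ATRA and 552 for VitaminA. A level is the mean deposited signal of a gene over the spots of a section, in ppm of the signal summed over all genes. The files hold no counts, so depth is unknown. In each spot the lowest positive values rose with the order of genes in the file, and this run is called the lowest class. Values of 0 and the lowest class together made up between 73.9% and 85.1% of the values in each of 10 equal stretches of the file. The lowest class itself took at most 0.0445% of values in the first stretch and at least 79.6% in the last, so zeros and the lowest class together are read here as not detected. A gene counts as detected in a spot where it lies above the lowest class, and the median gene was detected in 12.1% of BMS961+BMS641 spots, 9.38% of BMS753 spots, 8.26% of ATRA spots and 11.6% of VitaminA spots. A spot can hold several cells, and fewer cells of a type cannot be told apart from less RNA per cell. As a check of the tissue, the median of 10 listed neuronal genes was detected in 51.9% of BMS961+BMS641, 35.3% of BMS753, 29.2% of ATRA and 57.2% of VitaminA spots. Their members ranged from at most 7.95% to at least 91.3% of the spots of a section. The median of 9 listed astroglia and progenitor genes was detected in 38.4%, 11.5%, 9.61% and 24.5% of spots. Among these Slc1a2, a glutamate transporter gene of astrocytes, was detected in 42.2% to 72.8% of spots and Gfap, the filament gene of mature astrocytes, in 2.19% to 6.34%.

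Epcam encodes an adhesion protein of epithelia and of embryonic stem cells. It stood at 921 ppm in BMS961+BMS641, against 6.36 ppm in BMS753, 10.4 ppm in ATRA and 11.5 ppm in VitaminA. Its lowest quadrant in the BMS961+BMS641 section, at 786 ppm, lay above the highest quadrant of any other section, at 13.4 ppm, and the other sections overlapped one another in their quadrants. The deposited signal of single spots had a lowest value of 0, a median of 441 and a highest of 5341 in BMS961+BMS641. The median was 0 in the other 3 sections, and the highest spot was at 115 in BMS753, 250 in ATRA and 147 in VitaminA. Epcam was detected in 360 of 365 BMS961+BMS641 spots, or 98.6%, against 10.4% of BMS753, 20.6% of ATRA and 19.4% of VitaminA spots. Where it was positive in BMS961+BMS641 its median rank in a spot was 145.5 from the top, against 4142.5 in BMS753, 3468 in ATRA and 3791.5 in VitaminA.

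The strength of detection differed as well as its extent. Values above the lowest class fall into further classes that rise in the same stepwise manner. In the BMS753, ATRA and VitaminA sections 91.8%, 82.0% and 87.9% of the spots that had Epcam held it in the class next above the lowest. In BMS961+BMS641 that share was 1.94%. The spot maps show no region of that section without Epcam, and its quadrants ranged from 96.8% to 100% of spots detected.

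**Figure D1:**
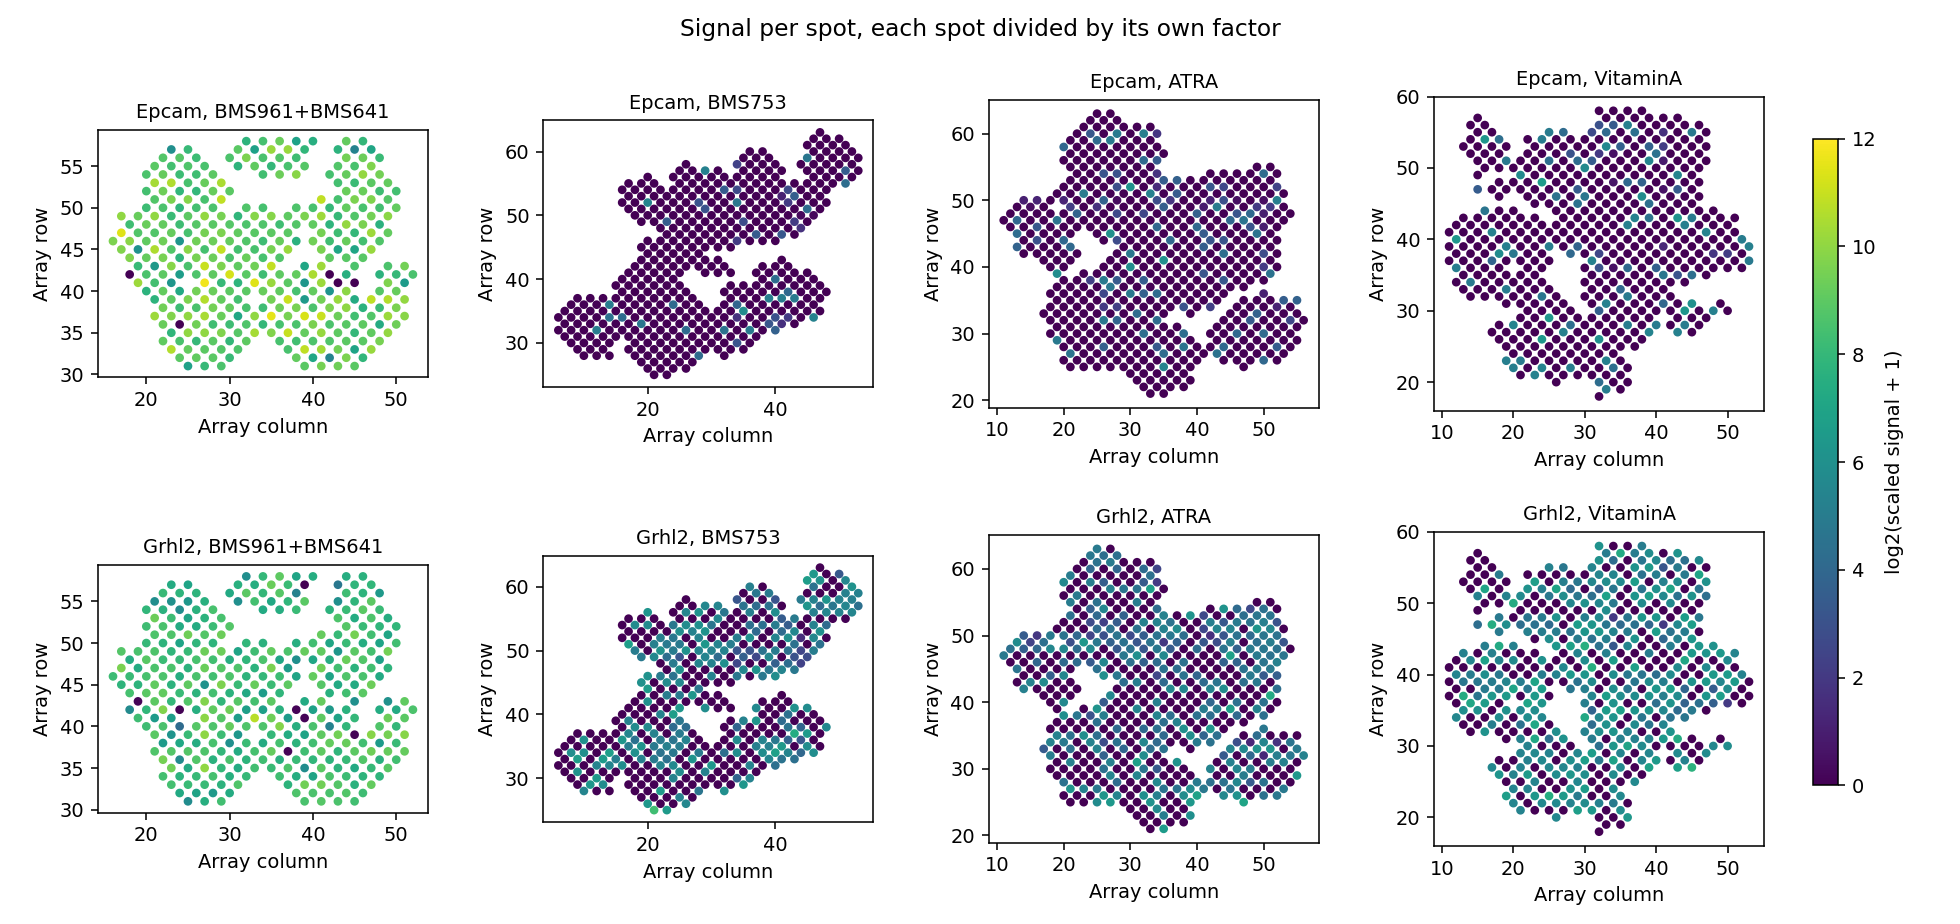
Signal of Epcam (upper row) and Grhl2 (lower row) in every spot, drawn at its array position, for BMS961+BMS641, BMS753, ATRA and VitaminA from left to right; colour gives log2 of the signal plus 1 after each spot was divided by its own factor. Epcam was detected in 98.6% of BMS961+BMS641 spots and in at most 20.6% of the spots of another section, and Grhl2 in 98.1% and at most 61.6%.

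Of the 9 genes, 4 had an entry in the RefSeq promoter table (GRCm38.p6), namely Epcam, Dsp, Grhl3 and Cgn. The 250 bases before the start of Epcam and of Cgn are shown because these genes were the highest and the lowest of the 9 in the BMS961+BMS641 section. The Epcam bases lie at chr17:87635729-87635978 on the plus strand and the Cgn bases at chr3:94786483-94786732 on the minus strand. Capitals mark matches, on either strand, to CAGGTG, an E-box that repressors of the Zeb and Snai families bind, to ACCGGT, the core of the grainyhead motif, and to AACNGGTT, a longer form of that motif.
Epcam: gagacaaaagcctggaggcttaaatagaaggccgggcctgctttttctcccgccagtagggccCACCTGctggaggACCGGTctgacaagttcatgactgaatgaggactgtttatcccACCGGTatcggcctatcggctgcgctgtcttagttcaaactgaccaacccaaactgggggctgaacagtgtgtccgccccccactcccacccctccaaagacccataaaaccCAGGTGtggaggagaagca
Cgn: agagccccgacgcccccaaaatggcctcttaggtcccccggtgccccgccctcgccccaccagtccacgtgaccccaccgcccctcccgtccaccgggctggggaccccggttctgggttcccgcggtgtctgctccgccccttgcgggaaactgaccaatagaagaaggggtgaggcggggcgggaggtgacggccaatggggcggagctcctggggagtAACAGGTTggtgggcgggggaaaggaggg

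The Epcam window held 2 matches to CAGGTG, beginning 187 and 19 bases before the start, and 2 to ACCGGT, beginning 174 and 131 bases before it. CAGGTG occurred in 17.2% and ACCGGT in 1.86% of the 32851 promoter windows of this length. The Cgn window held 1 match to AACNGGTT, which occurred in 1.79% of windows and can overlap ACCGGT when its open base is C. Grhl3 had 1 match to CAGGTG, and Dsp had none of the 3 motifs. The motifs were chosen with the sequences in view, and a match describes letters only.

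Perp encodes a membrane protein of desmosomes that p53 and p63 induce. It stood at 26.5 ppm in BMS961+BMS641, against 3.48 ppm in BMS753, 1.22 ppm in ATRA and 2.28 ppm in VitaminA. Its quadrants in BMS961+BMS641, from 20.0 to 31.1 ppm, lay above those of each other section, whose highest was at 4.97 ppm. It was detected in 38.4% of BMS961+BMS641 spots and in 2.77%, 2.19% and 2.90% of those of BMS753, ATRA and VitaminA, which is 13, 13 and 16 spots. In BMS961+BMS641 60.0% of the spots with Perp held it in the class next above the lowest, so it was far weaker there than Epcam, and its highest spot reached a signal of 361.

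Trp63 encodes p63, the regulator of stratified epithelia, and was broadly present in every section. Its levels were 142 ppm in BMS961+BMS641, 98.2 ppm in BMS753, 46.0 ppm in ATRA and 59.5 ppm in VitaminA, with detection in 83.6%, 55.2%, 43.0% and 60.7% of spots. The quadrants of BMS961+BMS641 (124 to 180 ppm) overlapped those of BMS753 (69.5 to 132 ppm) and lay above those of ATRA (37.3 to 56.0 ppm) and VitaminA (46.4 to 67.5 ppm). Trp63 spans 208 kb of the genome, the longest of the 9 genes, and detection followed span in these data. Over all genes with a known span the Spearman correlation of span with detection was 0.799 in BMS961+BMS641, 0.837 in BMS753, 0.803 in ATRA and 0.834 in VitaminA. Over the 9 genes it was 0.87, 0.83 and 0.88 in BMS753, ATRA and VitaminA, but 0.18 in BMS961+BMS641, where Epcam, with a span of 15.1 kb, was detected most widely. Epcam and Perp were chosen in part for being high in that section, so nothing is read from the value of 0.18. These correlations run across genes and carry no test.

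The desmosomal genes were not high in the same sections. Dsg2 encodes a desmosomal cadherin of simple epithelia and heart, and Dsp encodes desmoplakin, which ties desmosomes to intermediate filaments. Dsg2 was at 102 ppm in BMS961+BMS641, 22.2 ppm in BMS753, 64.3 ppm in ATRA and 15.1 ppm in VitaminA, and was detected in 71.2%, 17.9%, 48.9% and 17.4% of spots. The quadrants of BMS961+BMS641 (72.0 to 122 ppm) overlapped those of ATRA (50.3 to 80.9 ppm), and both sections lay above BMS753 (20.2 to 25.5 ppm), which in turn lay above VitaminA (12.2 to 16.9 ppm). Dsg2 lies 68.5% to 68.8% of the way down the files, where undetected values are often positive, but the lowest class gave at most 6.26% of its signal in any section.

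Dsp stood at 19.4 ppm in BMS961+BMS641, 33.7 ppm in BMS753, 28.8 ppm in ATRA and 25.4 ppm in VitaminA, and neighbouring sections in this order of levels overlapped in their quadrants. It was detected in 37.3%, 36.0%, 35.6% and 33.9% of spots, a range of a few percent over all 4 sections. The median signal of a spot was 0 in every section, and the highest spot ranged from 293 in ATRA to 377 in VitaminA. Dsp was thus the steadiest of the desmosomal members, and it showed no counterpart to the high Dsg2 and Perp levels of BMS961+BMS641.

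The grainyhead-like factors also differed from each other. Grhl2, an activator of junction genes in simple epithelia, was at 478 ppm in BMS961+BMS641, 62.9 ppm in BMS753, 52.3 ppm in ATRA and 72.9 ppm in VitaminA. Its quadrants in BMS961+BMS641 (438 to 550 ppm) lay above those of every other section, whose highest was at 80.4 ppm. It was detected in 98.1%, 49.3%, 50.8% and 61.6% of spots, and the spots of BMS961+BMS641 had a median signal of 233 and a highest of 3061. Grhl2 was therefore seen in many spots of all sections, and in BMS961+BMS641 it lay at least 3 classes above the lowest in 86.6% of the spots that had it, against 12.99%, 17.6% and 20.0% in BMS753, ATRA and VitaminA.

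Grhl3, which acts in the epidermal barrier and in closure of the neural tube, had levels of 50.4 ppm in BMS961+BMS641, 88.5 ppm in BMS753, 59.6 ppm in ATRA and 62.3 ppm in VitaminA. Neighbouring sections in this order of levels overlapped in their quadrants. Grhl3 stands near the end of every file, and its signal came to a large part from the lowest class, 47.8% in BMS961+BMS641, 64.5% in BMS753, 55.2% in ATRA and 40.2% in VitaminA. With that class set at 0 its levels were 28.2, 36.4, 28.9 and 39.5 ppm. It was positive in at least 99.8% of the spots of each section but detected in only 28.8%, 16.4%, 21.2% and 30.1%, so most of its positive values lay in the lowest class.

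Esrp1 encodes a splicing factor that sets epithelial forms of many transcripts. It was at 10.95 ppm in BMS961+BMS641, 20.8 ppm in BMS753, 20.7 ppm in ATRA and 15.9 ppm in VitaminA, and was detected in 33.2%, 25.6%, 34.6% and 31.7% of spots. Neighbouring sections in the order of levels overlapped, although all quadrants of BMS961+BMS641 (8.35 to 13.8 ppm) lay below those of ATRA (14.6 to 27.3 ppm).

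Cgn encodes cingulin, a protein on the inner face of tight junctions, and was lowest in the section where Epcam was highest. It was at 1.15 ppm in BMS961+BMS641, 37.3 ppm in BMS753, 20.6 ppm in ATRA and 5.47 ppm in VitaminA. No neighbouring pair of sections overlapped in their quadrants, which ran from 0.444 to 2.20 ppm in BMS961+BMS641, 33.7 to 41.4 ppm in BMS753, 14.9 to 29.5 ppm in ATRA and 4.62 to 6.95 ppm in VitaminA. It was detected in 20 of 365 spots (5.48%) in BMS961+BMS641, against 31.1%, 29.2% and 8.33% of spots in BMS753, ATRA and VitaminA.

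**Figure D2:**
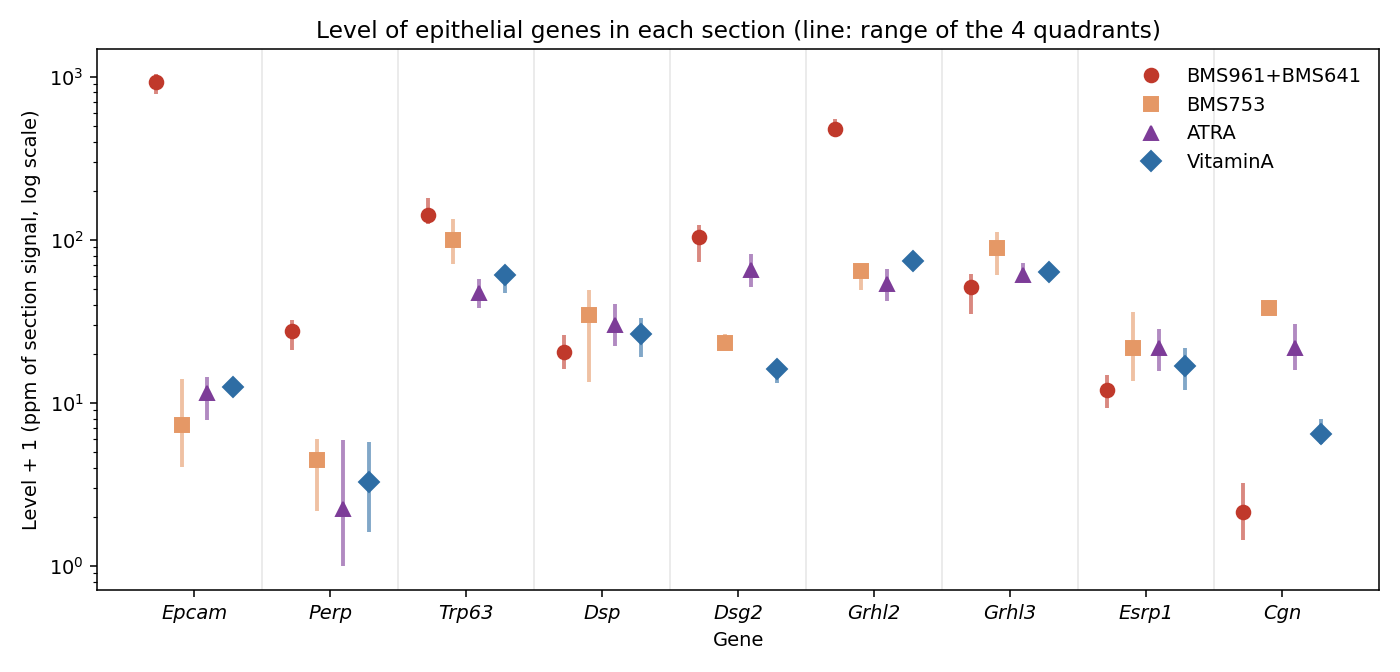
Level plus 1, in ppm of the signal of a section on a log axis, for each of the 9 genes in BMS961+BMS641, BMS753, ATRA and VitaminA; points are whole sections and lines run from the lowest to the highest of 4 quadrants. Epcam, Perp and Grhl2 have all BMS961+BMS641 quadrants above every other section, and Cgn has them below.

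**Figure D3:**
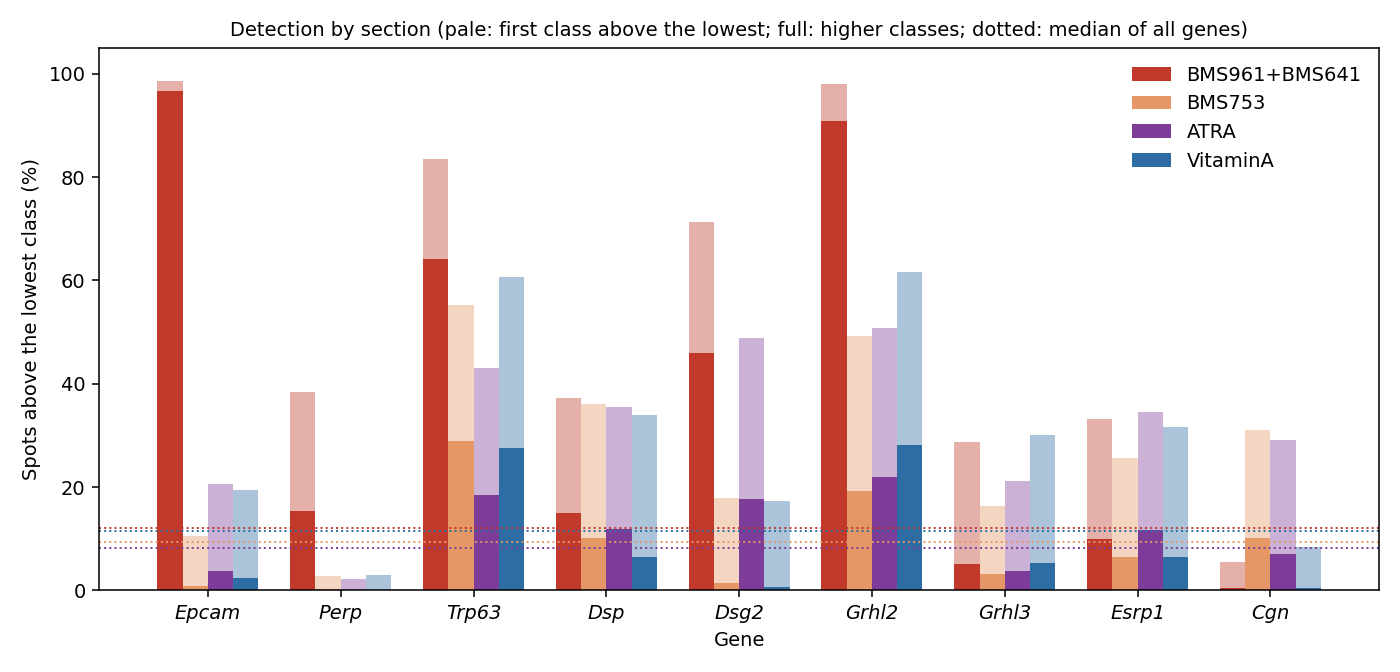
Percent of spots in which each of the 9 genes lay above the lowest class, by section, with the class next above the lowest in pale and higher classes in full colour; dotted lines give the median of all genes of a section. Dsp stays between 33.9% and 37.3% in all 4 sections, while Epcam reaches 98.6% in BMS961+BMS641, nearly all in higher classes.

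Log2 ratios of levels, with 1 ppm added to each, were counted as past the fold at a size of 1. For BMS961+BMS641 over VitaminA 5 of the 9 genes were higher past the fold, where 8.6% of all 20512 genes were, and 1 was lower, where 18.6% were. The choice of genes used this contrast, so nothing is read from these counts. Epcam had 6.20, Perp 3.07, Grhl2 2.70, Dsg2 2.68, Trp63 1.24 and Cgn -1.59, and for each of these the quadrants of the sections did not overlap, which together with the fold held for 7.77% of all genes on the higher and 16.8% on the lower side. Measured as the percent of spots detected, Grhl2 was at 0.66, Trp63 at 0.46 and Cgn at -0.53, all within the fold. This measure has a ceiling at all spots. Grhl2 and Trp63, detected in 61.6% and 60.7% of VitaminA spots, could not have been higher past the fold by it. With the median over spots, Perp was at 0.093 and Cgn at 0.00. Cgn was also within the fold with a pseudocount of 5 ppm (-0.77) and with the tie class index (-0.91). Grhl3 (-0.30), Dsp (-0.37) and Esrp1 (-0.50) stayed within the fold. The median of all genes was -0.27 and that of the 9 genes 1.24.

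For BMS961+BMS641 over BMS753, Epcam had 6.97, Grhl2 2.91, Perp 2.62 and Dsg2 2.15, and Cgn -4.15, so 4 were higher past the fold (6.69% of all genes) and 1 lower (22.6%). None of these 5 overlapped in quadrants, which with the fold held for 5.86% of all genes on the higher and 15.6% on the lower side. Over ATRA, Epcam had 6.34, Perp 3.63, Grhl2 3.17 and Trp63 1.60, and Cgn -3.33, again 4 higher (12.2%) and 1 lower (9.04%), all without overlap (10.6% and 7.91% of all genes). Dsg2, at 0.66 over ATRA, was within the fold there. These comparisons share the BMS961+BMS641 section, so they are not independent, and the remarks on the choice of genes apply to them too.

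The comparisons without the BMS961+BMS641 section follow. For BMS753 over VitaminA only Cgn was higher (2.57), 1 of 9 genes, where 15% of all genes were, and none was lower, where 9.67% were. Its quadrants did not overlap, as held with the fold for 10.1% of all genes on the higher and 8.32% on the lower side. For ATRA over VitaminA, Dsg2 (2.02) and Cgn (1.74) were higher, where 7.08% of all genes were, and none was lower, where 21.2% were. Neither overlapped in quadrants, as held with the fold for 6.7% of all genes on the higher and 19% on the lower side. Epcam was at -0.77 with BMS753 and -0.14 with ATRA, and its quadrants overlapped those of VitaminA in both. Grhl2, at -0.47, had all its ATRA quadrants below those of VitaminA, though within the fold. With the median over spots, ATRA over VitaminA gave 3.63 for Dsg2, 0.00 for Cgn, -5.32 for Trp63 and -2.83 for Grhl2. In that setting 1 gene was higher and 2 were lower past the fold. Trp63 was detected in 43.0% of ATRA and 60.7% of VitaminA spots, so its median spot was undetected in ATRA only. By mean levels its log2 ratio was -0.36. Grhl2, detected in 50.8% of ATRA spots, lay close to the same switch.

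Between BMS753 and ATRA, Trp63 (1.08) and Perp (1.01) were higher with BMS753, where 23.1% of all genes were, and Dsg2 was lower (-1.49), where 5.93% were. Trp63 and Dsg2 did not overlap in quadrants, as held with the fold for 17.6% of all genes on the higher and 5.35% on the lower side. Perp rested there on 13 spots in each section, and its quadrants overlapped. The median of all genes in this comparison was 0.63, and relative to it Trp63 was at 0.45, Perp at 0.38 and Dsg2 at -2.12.

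Other epithelial genes, taken from lists chosen for function with earlier results of these data known, were counted in BMS961+BMS641 over VitaminA, where 8.6% of all genes were higher and 18.6% lower past the fold. The counts of the lists below are small, and no list was tested against all genes. Of 8 adherens junction genes 2 were higher past the fold and none lower. Cdh1, which encodes E-cadherin, was at 502 ppm in BMS961+BMS641, 52.7 ppm in BMS753, 39.6 ppm in ATRA and 41.2 ppm in VitaminA, a log2 ratio of 3.57 over VitaminA, and was detected in 97.8% of BMS961+BMS641 spots. Ctnna1, the alpha-catenin gene, was at -0.45. Ctnnd1, the gene of the catenin that binds E-cadherin near the membrane, was the other gene past the fold, at 1.51, and is named here after its value was seen.

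Of 16 tight junction and polarity genes 2 were higher past the fold and 4 lower. Ocln, the occludin gene, was at 897 ppm in BMS961+BMS641, 45.8 ppm in BMS753, 22.4 ppm in ATRA and 41.5 ppm in VitaminA, a log2 ratio of 4.40. Marveld3, a relative of occludin, was the other, at 251 ppm against 16.3 ppm in VitaminA (3.86), and is named after its value was seen. Tjp3, which encodes a scaffold of tight junctions, was at -1.92. The claudin genes Cldn3, Cldn6 and Cldn7 were detected in 0.274%, 0.548% and 2.19% of BMS961+BMS641 spots. Detection followed span over all genes, so low detection of a gene is not read as absence of its RNA. The same holds for the keratin, Ttr, Vim and Gfap values.

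Of 10 further desmosome genes 1 was higher and 3 were lower past the fold. Jup, the plakoglobin gene, was at 32.0 ppm in BMS961+BMS641 against 14.2 ppm in VitaminA (1.12), and Pkp4, a plakophilin relative, was at -0.79. Of 12 further epithelial transcription and splicing genes 1 was higher, Rbm47, an RNA-binding protein gene (146 ppm against 50.3 ppm, 1.52), and 4 were lower, with Klf5, a factor of proliferating epithelia, at -1.93. Of 14 epithelial membrane and protease genes 1 was higher and 3 were lower, with Rab25, the gene of an epithelial trafficking protein, at -0.07 and Itga6, an integrin gene of basal epithelium, at -1.91. The list medians were -0.19 for adherens junctions, -0.34 for tight junctions, -0.48 for desmosomes, -0.65 for transcription and splicing and -0.30 for membrane and protease genes, beside -0.27 over all genes.

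Keratins are the filament proteins of epithelial cells. Of 6 simple keratin genes none was higher past the fold and 1 was lower, and in BMS961+BMS641 they were detected in 1.10% to 15.9% of spots. Krt8 was at 18.7 ppm in BMS961+BMS641 against 52.5 ppm in VitaminA (-1.45), and was detected in 5.48% of BMS961+BMS641, 2.99% of BMS753, 3.88% of ATRA and 34.1% of VitaminA spots. With the lowest class set at 0 its log2 ratio was -3.21. The 11 listed genes of stratified epithelium were detected in 0.274% to 7.95% of BMS961+BMS641 spots, and 8 of them in under 5%. Of these 11 genes 3 were higher past the fold, Krt14, Krt15 and Krt17, but the highest of these levels was 5.35 ppm, and none was lower.

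**Figure D4:**
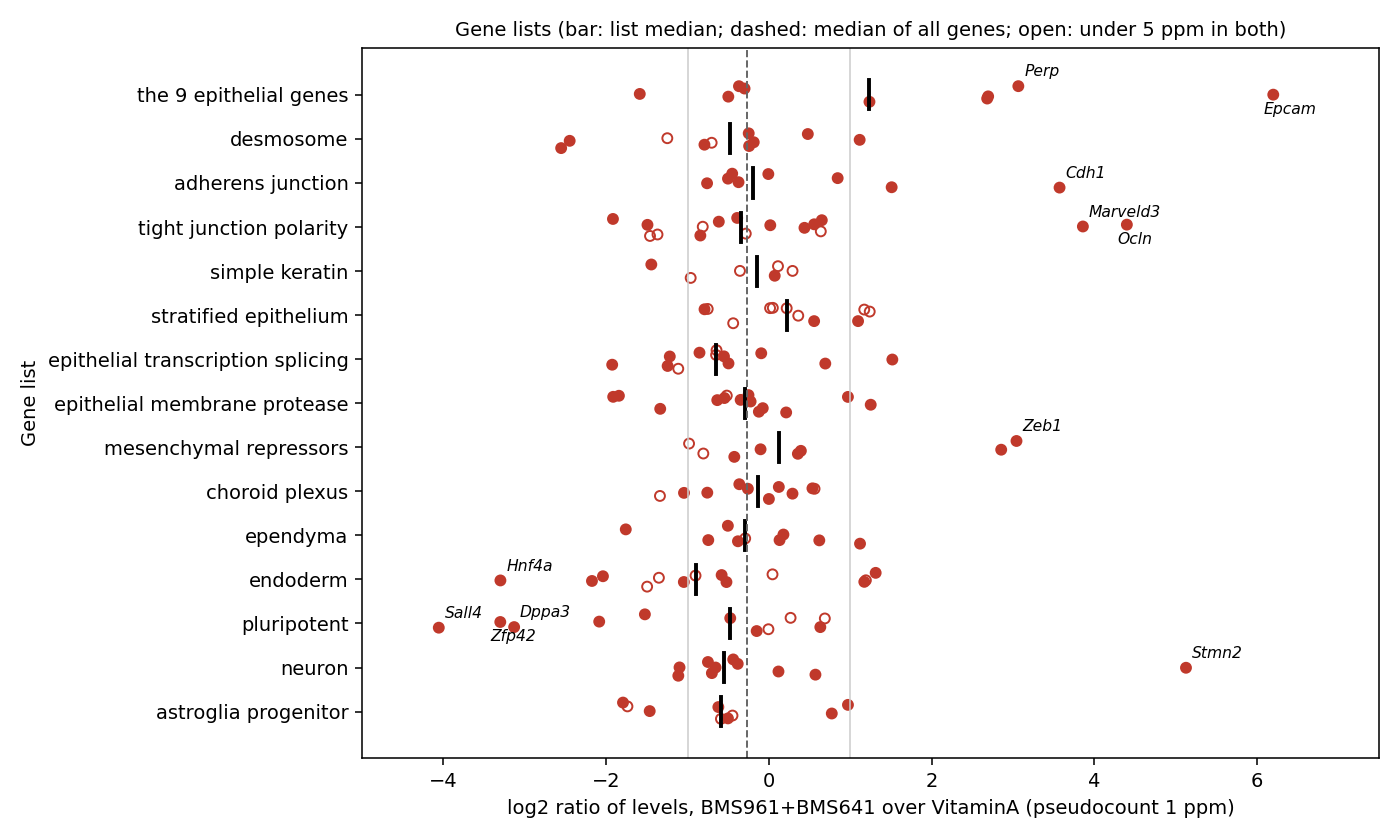
Log2 ratio of levels of BMS961+BMS641 over VitaminA for the members of each gene list; each point is a gene, open where it was under 5 ppm in both sections, black bars are list medians and the dashed line the median of all genes. Epcam (6.20), Ocln (4.40), Marveld3 (3.86), Cdh1 (3.57) and Perp (3.07) lie to the right among the epithelial lists, with Grhl2 (2.70) and Dsg2 (2.68) not far below Perp. Zeb1 (3.04) and Stmn2 (5.13) lie to the right in other lists.

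Markers of other tissues with an epithelial form were read beside these values. The choroid plexus genes summed to 313 ppm in BMS961+BMS641 (10 listed), 304 ppm in BMS753, 258 ppm in ATRA and 306 ppm in VitaminA (11 listed in each). Ttr, the defining gene of choroid plexus, was not listed in BMS961+BMS641 and was detected in at most 5.54% of the spots of another section. In BMS961+BMS641 over VitaminA none of the 10 was higher past the fold and 2 were lower, with Slc4a5 at 0.54 and Enpp2 at -0.76. The ependyma genes summed to 163 ppm in BMS961+BMS641, 229 ppm in BMS753, 138 ppm in ATRA and 223 ppm in VitaminA, with 1 of 9 higher and 1 lower, Mlf1 at 0.62 and Dnah11 at -0.74. The endoderm genes summed to 146 ppm in BMS961+BMS641, 245 ppm in BMS753, 242 ppm in ATRA and 247 ppm in VitaminA, with 3 of 13 higher and 6 lower, Cdh17 at 1.17 and Hnf4a, a factor of liver and gut, at -3.30. The part of such cells in the Epcam levels was not tested.

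The pattern of Epcam was shared by other genes. Being detected in at least 90% of the spots of BMS961+BMS641 and in at most 25% of those of each other section held for 49 of 19783 genes, or 0.248%, and Epcam was the only one of the 9 among them. The same pattern held for 0.136% of genes in ATRA and 0.0859% in VitaminA, and for none in BMS753, and none of the 9 genes was among these. Grhl2, Cdh1 and Ocln were excluded by their detection elsewhere. By Euclidean distance of log2 levels over the 4 sections, the genes closest to Epcam were Rpgrip1 (1.02), Bri3bp (1.29), Etv3 (1.34), Ppp2r3c (1.45) and Dzip1l (1.47). Rpgrip1, a gene of photoreceptor cilia, was at 729 ppm in BMS961+BMS641, 10.3 ppm in BMS753, 10.0 ppm in ATRA and 19.9 ppm in VitaminA. Closest to Perp were Tirap (0.27), Slc2a8 (0.44), Ccr8 (0.57), Spata31d1b (0.68) and Vgll3 (0.73), all between 22.5 and 27.9 ppm in BMS961+BMS641.

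Within the sections the 9 genes varied over spots mostly apart from each other. Pearson correlations between spots, after each spot was divided by its own factor, were computed for genes detected in at least 20% of the spots of a section. Over the 28 pairs in BMS961+BMS641 the median was 0.03 and the range -0.22 to 0.39, with Epcam and Grhl2 the highest pair (0.39), followed by Epcam and Perp (0.22) and Perp and Grhl2 (0.19). In BMS753 10 pairs ranged from -0.04 to 0.15, in ATRA 28 pairs from -0.21 to 0.12 and in VitaminA 10 pairs from -0.16 to 0.11. The lowest value in BMS961+BMS641, ATRA and VitaminA came from a pair with Grhl3, whose signal was lower in spots with more detected genes (r of -0.57 in BMS961+BMS641, -0.65 in ATRA and -0.49 in VitaminA). The spots of a section share a library and differ in their number of detected genes, and no test is attached to these values.

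The correlation of Epcam with Grhl2 was high among broadly detected genes, but genes of other functions stood above it. Of the 632 other genes detected in at least 90% of BMS961+BMS641 spots, 24 correlated with Epcam at least as highly as Grhl2, counting Grhl2. The median of these genes was 0.03. The 5 highest of all 7846 genes were Cym (0.59), Sufu (0.59), 1700028P14Rik (0.55), Rnf40 (0.54) and Adgrv1 (0.53), which include a gastric protease and a regulator of the hedgehog pathway. Of the junction genes that were past the fold over the section, Cdh1 was at 0.16, at the 85.3 percentile of the 632 genes, Marveld3 at 0.07 (66.6) and Ocln at 0.01 (41.8). Pard3, a polarity gene within the fold, was at -0.08 (10.9). The genes closest to Perp were Camkv (0.26), Zc3h6 (0.24), Zfp94 (0.24), Gm16833 (0.24) and 1700028P14Rik (0.23).

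**Figure D5:**
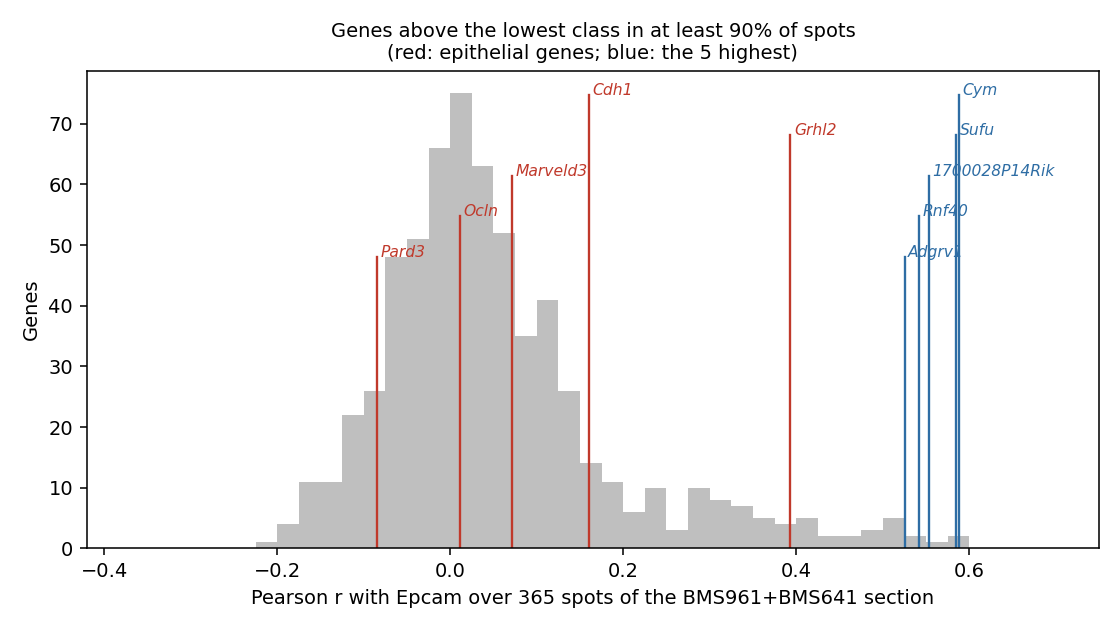
Histogram of the Pearson correlation with Epcam over the 365 spots of the BMS961+BMS641 section, for the 632 other genes detected in at least 90% of spots; red lines mark epithelial genes and blue lines the 5 highest genes. Grhl2 (0.39) stands right of the bulk of genes, and Ocln (0.01) and Cdh1 (0.16) lie within it.

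The spatial arrangement of the genes was weak, apart from that of Grhl3. Moran's I, which is near 0 when neighbouring spots are no more alike than distant ones, was 0.07 for Epcam, Dsg2 and Grhl2 in BMS961+BMS641, where the median of the 7846 genes compared was 0.02, and these genes lay near the 90th percentile (90.2, 90.1 and 89.9). Perp and Trp63 were at 0.02. Dsp was at -0.01 and Esrp1 at -0.04 (2.24 percentile) in that section. In the other sections Trp63, Dsp and Grhl2 ranged from 0.02 to 0.09, and Dsg2, Esrp1 and Cgn from -0.01 to 0.02 where compared. The value of 0.09 was that of Trp63 in ATRA (92.5 percentile). Epcam was at -0.03 in ATRA (1.83 percentile). Grhl3 had the highest values, 0.09 in BMS961+BMS641, 0.22 in ATRA and 0.12 in VitaminA (94.6, 99.9 and 97.2 percentile), beside its dependence on the number of detected genes. All other members compared had positive correlations with that number, from 0.01 for Epcam in BMS961+BMS641 to 0.37 for Trp63 in VitaminA.

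A spot of the BMS961+BMS641 section held a median of 5 of the 9 genes, with a range from 1 to 9. The medians were 2 in BMS753, 3 in ATRA and 3 in VitaminA. At least 5 of the 9 genes were detected together in 60.3% of BMS961+BMS641 spots, 13.4% of BMS753 spots, 107 of the 593 ATRA spots and 10.5% of VitaminA spots. The number of detected genes of any kind moved partly along with these shares, with a median per spot of 4462 in BMS961+BMS641, 3330 in BMS753, 3388 in ATRA and 4659 in VitaminA. VitaminA had the most detected genes per spot and the smallest share of spots with at least 5 of the 9, and a link between them was not tested. The 9 genes include Epcam and Perp, chosen in part for being high in BMS961+BMS641, so nothing is read from the share of that section.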

How the data were processed

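Each deposited file gives, for 1 section, a signal for every gene in every spot. The authors' naming of the deposited files marks this signal as quantile normalised, and the values bear the mark: after sorting, spots of a section differ only by a factor. The submitters' processing notes name mm9 as the build. Aligner, counting and spot filter: not given in the sources used here.

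Levels were computed as ppm of the mean signal, and log2 ratios with a pseudocount of 1 ppm and no filter on low values, for all 6 pairs of sections. With 1 section per group no p-value was computed. Quadrants (4 per section) were cut at the median array column and, within each side, at the median row. Correlations over spots used log2 of the signal plus 1, after division of each spot by its factor, and Moran's I used 8 grid neighbours. The 14 gene lists and the 9 genes were chosen with earlier results of these data known. From each list the top and bottom gene by log2 ratio of BMS961+BMS641 over VitaminA was named, if it reached 20 ppm in one of these sections. The 5 genes most like Epcam and like Perp, across sections and over spots, were named as well. Ctnnd1, Marveld3 and Snai1 were named after their values were seen, as were the claudin, keratin, Ttr and Gfap values. Pou5f1, Vim and Pard3 were also named outside these rules. Predicted genes were left out of likeness across sections. Symbols were matched to RefSeq (22097 of 22218) for spans and names. The ratios and the classes were tried on simulated data. The genes changed there all lay above a minimum level, and both simulated sections had the same distribution of values. Ratios of genes at a few ppm, and sections of unlike distribution, were thus not covered. Software was Python 3.11.15 with scipy 1.17.1, numpy 2.4.6, pandas 2.3.3 and matplotlib 3.10.9.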

Additional observations from a re-analysis of the deposited data

How the results depend on the processing

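Levels were recomputed under 8 alternatives and under 1 more, the tie class index, chosen after the data were seen. Of 22 log2 ratios of single genes past the fold, 171 of 197 recomputed values stayed past it in the same direction, 6 were at 0 and none had the opposite sign. Among the alternatives was a minimum level of 5 ppm, which drops weak genes and leaves the ratio of every kept gene as it was. Its values are part of the 171 and could not have moved, so that count overstates how stable the ratios were. With the median over spots, which is 0 or near 0 for a gene detected in under 50% of spots, the median log2 ratio of the 9 genes was 0.00 for BMS753 over VitaminA and for BMS753 over ATRA and 0.093 for each of the 3 comparisons of BMS961+BMS641, and 2 genes were past the fold for BMS753 over VitaminA. With no scaling to ppm the median was -0.46 for ATRA over VitaminA, 0.048 for BMS753 over VitaminA (2 genes past the fold), and 1.78, 1.60 and 1.52 for BMS961+BMS641 over VitaminA, ATRA and BMS753. Centred on all genes it was 0.28 for ATRA over VitaminA, -0.36 for BMS753 over ATRA and 1.06 for BMS961+BMS641 over BMS753. As the percent of spots detected it was -0.13 for BMS753 over VitaminA, -0.043 for BMS753 over ATRA (1 gene past the fold) and 0.46 for BMS961+BMS641 over VitaminA. In that setting 3 genes were past the fold over VitaminA and 3 over ATRA. Grhl2 had 0.66 over VitaminA there and Trp63 0.46, since both were detected widely in every section. With the tie class index the median was 0.18 for ATRA over VitaminA, and 1 gene was past the fold for BMS753 over ATRA. Perp in BMS753 over ATRA, at 1.01, lay within the fold under 7 of these settings (0.00 to 0.79), and Cgn in BMS961+BMS641 over VitaminA under 4 (-0.91 to 0.00). The causes of the other shifts were not tested. No paired analysis was possible because each group has 1 section.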

Other observations

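Genes that oppose the epithelial state were read from a list of 8 mesenchymal genes and repressors. In BMS961+BMS641 over VitaminA 2 were higher past the fold and none lower, where 8.6% of all genes were higher and 18.6% lower, and the list summed to 557 ppm in BMS961+BMS641, 422 ppm in BMS753, 1045 ppm in ATRA and 220 ppm in VitaminA. Zeb1, a repressor of E-cadherin, was at 286 ppm in BMS961+BMS641, 49.2 ppm in BMS753, 197 ppm in ATRA and 33.8 ppm in VitaminA, so it was high in the section where Cdh1, Epcam and Grhl2 were high. Snai1, another repressor of E-cadherin, named after its value was seen, was at 72.7 ppm in BMS961+BMS641, 32.5 ppm in BMS753, 661 ppm in ATRA and 9.18 ppm in VitaminA. Cdh2, which encodes N-cadherin, was at -0.10, and Vim, the vimentin gene, was detected in at most 2.72% of the spots of any section.

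Epcam is also active in pluripotent cells. Of 11 pluripotency genes none was higher past the fold in BMS961+BMS641 over VitaminA and 5 were lower, where 8.6% of all genes were higher and 18.6% lower, with Esrrb at 0.63 and Sall4 at -4.06. The list summed to 288 ppm in BMS961+BMS641, 292 ppm in BMS753, 162 ppm in ATRA and 472 ppm in VitaminA, and Pou5f1 was detected in 10.8% to 15.1% of spots. Against the same shares of all genes, 1 of 10 neuronal genes was higher and 2 were lower, with Stmn2 at 5.13 and Snap25 at -1.11. Of 9 astroglia and progenitor genes none was higher and 3 were lower, with Sox9 at 0.97 and Slc1a2 at -1.79.

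Over the spots of the BMS961+BMS641 section, 46 of the 632 genes compared, or 7.28%, had a correlation of at least 0.3 with Epcam. They included 10 of the 48 other genes that were high over that section alone, which is 20.8% of those and 21.7% of the 46. The median correlation was 0.044 over these 48 genes and 0.026 over the 632.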
